A study of Homo sapiens with 18 samples.

Results

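Of the 34979 ATAC-seq peaks listed for untreated A2780 cells, 17633 (50.4%) had an overlap of 1 bp or more with some peak of every one of the other 3 lists (cisplatin-treated A2780 cells, and Acis cells without and with cisplatin). These shared peaks are the subject here. They were selected on measured values, the presence of a peak in all 4 lists, so that presence is a description and not a result. A2780 is a human ovarian carcinoma line that is sensitive to cisplatin, and Acis (A2780cis) is its resistant derivative, which was given 1 µM cisplatin every 3 passages in culture. Cells of each line were either left untreated, as control, or incubated with 200 µM cisplatin for 3 h. The authors deposited 1 peak list per condition, made from 3 ATAC-seq replicates in each control and 2 in each cisplatin condition, and RNA-seq counts of 3 replicates in each of the same 4 conditions. Acis is 1 derivative line, so a difference between the lines is a difference between 2 cultures, whatever set them apart. Since there was 1 list per condition, no peak value has a replicate, and all peak values are described without a test.

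ATAC-seq maps DNA that a transposase can reach, which is mainly DNA free of nucleosomes. In most human cell types, sites that are open regardless of condition include promoters of broadly expressed genes, which are rich in CpG dinucleotides and are bound by factors such as SP1, ETS proteins, NRF1, NFY and YY1, and sites of CTCF, a zinc finger protein that sets the borders of chromatin loops. Enhancers, often bound by AP-1 (dimers of JUN and FOS proteins) or TEAD factors, vary more between cell states. Cisplatin forms adducts mainly at adjacent guanines, and the adducts block RNA polymerase.

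Sequences under the summits of strong shared peaks, which need not be typical, are given here because the results turn on what these letters are. For each of 11 short sequences searched on both strands, the peak with the highest value of its lowest -log10 q over the 4 lists was chosen among shared peaks that hold the sequence within 50 bases of the summit. Bases are from GRCh38, plus strand, with matches in capitals. The windows were cut short where they met an exon, and a match inside an exon is shown with 30 bases. CTCF, AP-1 and TEAD sites come from distal peaks, with summits over 1000 bp from any annotated transcript start, and the rest from peaks at a gene start.
CTCF (CCANNAGGNGGC), chr1:16621186-16621285, intron of CROCCP2: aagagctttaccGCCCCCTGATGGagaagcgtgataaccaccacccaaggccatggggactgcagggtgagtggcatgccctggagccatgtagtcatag
AP-1 (TGANTCA), chr1:236097167-236097266, intergenic tandem repeat: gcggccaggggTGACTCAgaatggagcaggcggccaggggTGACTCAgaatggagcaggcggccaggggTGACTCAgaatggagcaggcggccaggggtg
TEAD (CATTCCA), chr10:41859891-41859990, intergenic repeat: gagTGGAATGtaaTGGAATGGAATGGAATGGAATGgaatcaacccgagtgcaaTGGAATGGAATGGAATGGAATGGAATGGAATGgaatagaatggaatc
GC box (GGGCGG, bound by SP1 and KLF proteins), chr19:19776502-19776560, start of LINC00663: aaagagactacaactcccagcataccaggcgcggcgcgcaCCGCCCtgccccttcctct
ETS (CCGGAAG), chr11:74171122-74171151, start of C2CD3, near that of PPME1: aagagcgctcctcCTTCCGGtgaaagtcgt
NRF1 (GCGCATGC), chr7:25125396-25125495, start of CYCS: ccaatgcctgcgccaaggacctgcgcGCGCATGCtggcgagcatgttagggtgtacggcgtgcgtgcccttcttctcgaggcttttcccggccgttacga
NFY (CCAATCA), chr7:100586370-100586399, start of LRCH4: gcgcagctgcacCCAATCAcaatgctcaga
YY1 (AAGATGGCG), chr18:50287800-50287829, start of CXXC1: ccctcaggcgcCGCCATCTTgcttatcgta
CRE (TGACGTCA), chr12:31729099-31729128, start of AMN1: gtaggtttttgTGACGTCAcacggattttt
E-box (CACGTG), chr14:20461683-20461782, between the starts of PIP4P1 and PNP: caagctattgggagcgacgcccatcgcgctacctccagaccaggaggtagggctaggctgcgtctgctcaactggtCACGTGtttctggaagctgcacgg
TATA box (TATAAA), chr12:50112021-50112081, start of COX14: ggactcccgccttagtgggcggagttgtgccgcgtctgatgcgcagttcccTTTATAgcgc
The genes beside these sites differ widely in what they encode. CYCS encodes cytochrome c, COX14 a factor for assembly of cytochrome c oxidase, CXXC1 a protein that binds unmethylated CpG, and PNP an enzyme of purine salvage.

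The 12 RNA-seq libraries held 4130644 to 5072216 counts, and edgeR's filter on low counts kept 15760 of 23622 genes. Replicates of a group differed by 0.731 to 1.53 times the counting noise, and all 3 pairs of A2780 control libraries were below it, so p-values measure a spread that may be technical. The depth of the ATAC-seq libraries is unknown from the lists. Of 9 ovarian and epithelial markers, 3 have a row in the count table. EPCAM had a mean of 3.55 normalized counts in A2780 control and 0.734 in Acis control, KRT8 had 15.6 and 4.05, and KRT18 had 25.5 and 143. Of the 4 leukocyte and 3 endothelial markers, 1 has a row, and none had a shared peak at its start. All 4 fibroblast markers have a row, with COL1A1 at 844 in A2780 control and 16.4 in Acis control. The other 6 ovarian and epithelial markers have no row in the count table.

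The shared peaks were the strong peaks of each list. Their median fold enrichment over the local background, the ratio that MACS2 gives at the summit, was 14 in A2780 control, against 7.21 for the 17346 other peaks of that list. The median -log10 q was 143, against 34.0, and the median width was 734 bp, against 548 bp. Widths ran from 197 to 4232 bp, and the shared peaks held 56.6% of the bases covered by the list. Seen from the other side, peaks overlapping them made up 55.9% of the A2780 cisplatin list, 72.8% of the Acis control list and 66.4% of the Acis cisplatin list. The A2780 control list was cut into 10 equal bins by -log10 q. The share of peaks present in all 4 lists was 3.29% in bin 1, the weakest, and 98.0% in bin 10, so presence in all 4 lists went with strength in the anchor list, which the same peak caller measured. The share at gene starts and the distal shares of CTCF and AP-1 sequences below were therefore also compared within these bins. The other features were not, so their differences may go with strength.

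**Figure D1:**
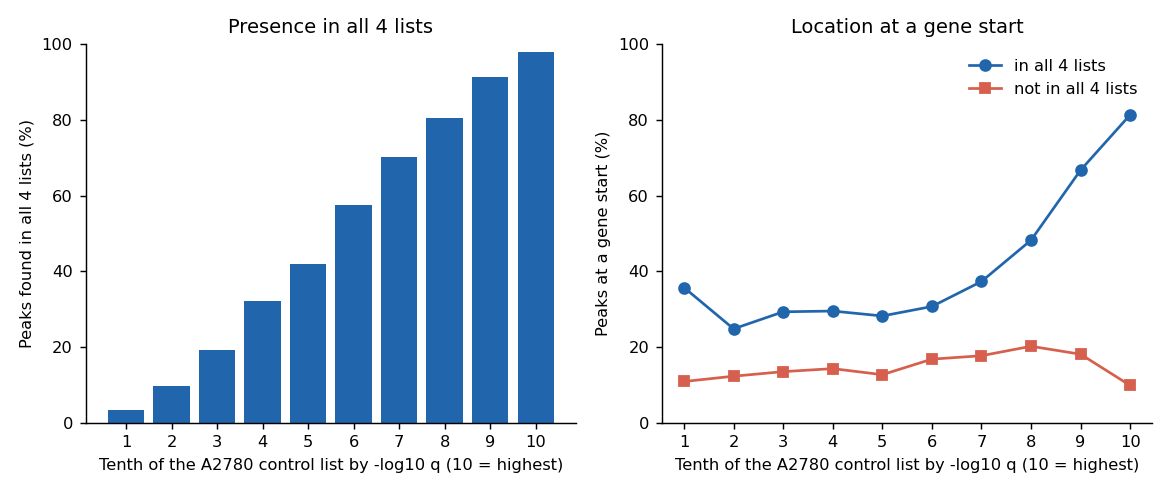
A2780 control peaks in 10 bins of -log10 q, with bin 10 the highest. The left panel gives the percent of each bin found in all 4 lists, which climbs from 3.29% to 98.0%, and the right panel the percent of peaks at a gene start for shared peaks (blue) and other peaks (red), where the blue points lie above the red ones in every bin.

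The selection left little doubt at its edge of 1 bp. The smallest overlap of any shared peak with a peak of another list was 92 bp, at chr5:141513904-141514872, followed by 175 bp at the PIM2 peak chrX:48918657-48919463 and 188 bp at the ARPC1A peak chr7:99365600-99365936. Among 4428 peaks missing from 1 list alone, 19 had a peak of that list within 200 bp. The nearest was at HIPK3, chr11:33257161-33257976, with the next Acis control peak 64 bp away.

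Shared peaks lay at gene starts more often than the other peaks did. Of the 17633, 8876 (50.3%, exact binomial 95% interval 49.6 to 51.1 for counting error only) had an annotated gene start within 500 bp of the peak, against 13.7% of the other peaks. Starts of protein-coding genes accounted for 7414 (42.0%, against 8.90%). A pair of protein-coding genes starting on opposite strands was found at 673 shared peaks (3.82%, against 0.265%). Distal peaks numbered 6789 (38.5%, against 76.9%), of which 3289 were intergenic, 3009 were in introns and 491 in exons, and 2013 peaks met neither definition. Of the distal peaks, 45 were also among those at gene starts, since the start distance was taken from the peak and the distal one from the summit. The gene-start share was higher in shared peaks within every bin of strength, from 35.7% against 10.9% in bin 1 to 81.3% against 9.86% in bin 10.

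Peaks missing from 1 or more lists had lower shares at gene starts. The share was 5.75% in the 7179 peaks found in A2780 control alone. In the 4652 peaks of both A2780 lists and neither Acis list it was 18.1%.

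**Figure D2:**
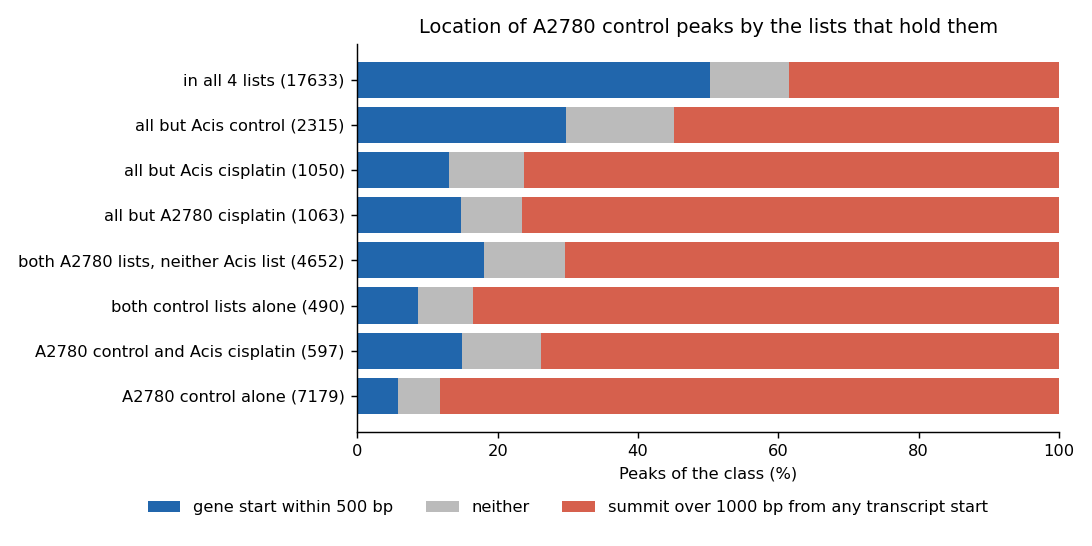
Location of A2780 control peaks by the lists that hold them, with the number of peaks in brackets and the horizontal axis in percent of each class. Blue marks peaks with a gene start within 500 bp, red marks distal peaks and gray the rest, and the blue part is longest, at 50.3%, in peaks of all 4 lists.

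Base composition differed in the same direction. The 300 bases around the summit had a median GC content of 61.3% in shared peaks and 49.3% in the other peaks. The CpG dinucleotide reached a median of 0.662 of the number expected from the base content, against 0.284. Steps of GG or CC, where cisplatin adducts can form, made up a median of 20.4% of dinucleotide steps against 14.4%. The distal shared peaks were nearer to the other peaks, with a GC content of 54.7% and a CpG ratio of 0.359, against 47.3% and 0.242 for other distal peaks. Shared peaks at gene starts had 64.7% and 0.812.

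The share of shared peaks differed by chromosome. Chromosome 19 had 61.8% of its A2780 control peaks in all 4 lists, and chromosome 22 had 58.3%. The lowest shares were 30.4% on chromosome 13 and 38.9% on chromosome 18. On chromosome 13, 28.0% of peaks were in both A2780 lists and neither Acis list, the highest such share of any chromosome. The median -log10 q of all chromosome 13 peaks was 65.6, against 68.0 over the whole list, so its peaks were about as strong as those elsewhere. The copy number of the chromosome in either line was not tested.

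At gene starts, shared peaks held the sequences of common promoter factors more often than the 2369 other peaks at gene starts. A GC box was within the 300 bases around the summit in 69.8% of shared and 50.3% of other start peaks, and in 45.0% of 34961 RefSeq promoter windows of the same length. The RefSeq windows ran from 250 bases before the start to 50 after it. Peak windows were centred on the summit, so the RefSeq shares come from windows placed otherwise. ETS sequences were found in 20.3% against 6.84%, with 10.3% of RefSeq promoters. NFY sequences were in 11.5% against 4.64% (RefSeq 6.95%), and NRF1 sequences were in 6.06% against 1.69% (RefSeq 3.06%). YY1 sequences were in 3.55% against 0.633% (RefSeq 1.76%) and CRE sequences, bound by CREB and ATF proteins, in 3.47% against 1.31% (RefSeq 1.85%). The E-box differed less, at 10.5% against 7.51% (RefSeq 7.27%). The TATA box went the other way, at 3.49% of shared and 4.98% of other start peaks, with 11.5% of RefSeq promoters. GC-rich sequences such as the GC box, ETS, NRF1 and CRE sequences are also more frequent in GC-rich DNA, and the part of base composition in these shares was not tested. Shared start peaks were also stronger than the other start peaks, with a median -log10 q of 230 against 38.4, and these shares were not compared at like strength. A match is a description of letters and not a site of binding. A peak with several of these sequences, overlapping or not, was counted for each.

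At distal sites the CTCF sequence set shared peaks apart. It was found in 1013 of 6789 distal shared peaks (14.9%), in 748 of 13341 other distal peaks (5.61%) and in 6.05% of distal peaks of both A2780 lists alone. The share was higher in shared peaks in every bin of strength, for example 17.2% against 3.69% in bin 8. AP-1 sequences went the other way, with 7.16% of distal shared peaks, 9.53% of other distal peaks and 10.0% of distal peaks of both A2780 lists alone, and were less frequent in shared peaks in every bin. TEAD sequences were at 5.64% against 6.31%. Distal shared peaks had a higher GC content than other distal peaks, at 54.7% against 47.3%. The part of base composition in these distal shares was not tested.

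The CTCF sequence also had a fixed place under the peak. Of 1057 matches in distal shared peaks, 81.7% lay within 50 bp of the summit, and 274 and 311 of them fell 30 to 50 bp to the left and to the right of it. Within 10 bp of the summit there were 3. The other distal peaks with a CTCF sequence had the same arrangement, with 81.5% within 50 bp. AP-1 matches were spread over the window, with 30.6% within 50 bp in shared and 36.6% in other distal peaks.

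**Figure D3:**
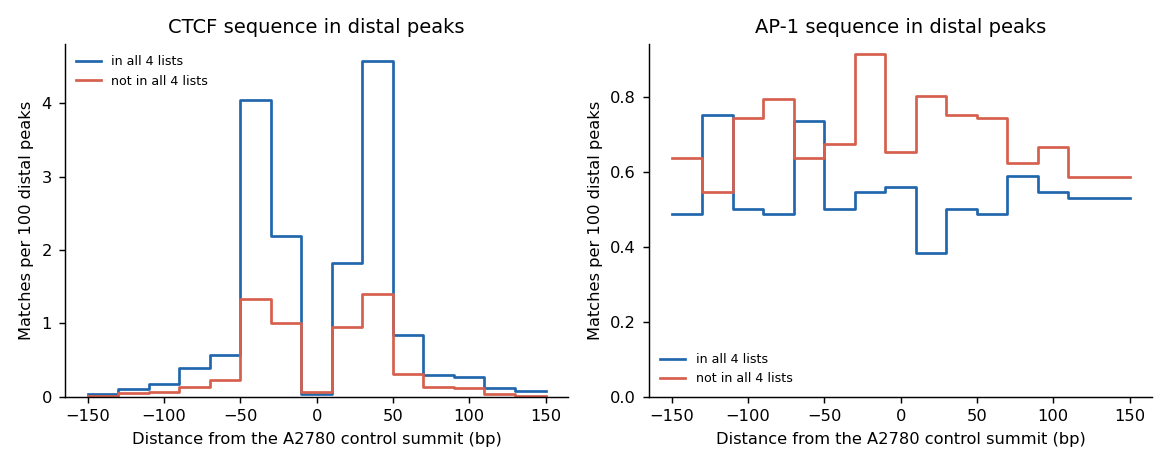
Matches per 100 distal peaks in bins of 20 bp by distance from the A2780 control summit, for the CTCF (left) and AP-1 sequence (right), in shared (blue) and other peaks (red). CTCF matches pile up 30 to 50 bp on both sides of the summit with almost none in the middle, and AP-1 matches show no such gap.

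The summit of a shared peak kept its place between lists. The nearest comparison was with Acis control, where the median distance from the A2780 control summit was 5 bp and 27.9% of summits fell on the same base. It was 12 bp for A2780 cisplatin and 7 bp for Acis cisplatin. Over all 3 lists, the farthest summit was a median of 41 bp away, and more than 200 bp away in 9.68% of shared peaks. Distal peaks with a CTCF sequence had medians of 4 bp for A2780 cisplatin, 2 bp for Acis control and 5 bp for Acis cisplatin. At gene starts the A2780 cisplatin summit was farther, at a median of 20 bp.

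Fold enrichment of the shared peaks differed moderately between lists. For each shared peak, the overlapping peak with the highest -log10 q stood for it in another list, a choice made after seeing the data because 755 shared peaks (4.28%) overlapped several peaks of another list. In A2780, the median was 14 for the control list and 11.5 for the cisplatin list. In Acis it was 15.2 and 13.9. The fold enrichments of the same peaks ranked alike, with Spearman's rho from 0.846 between the cisplatin lists to 0.931 between the Acis lists (17633 peaks, which share the anchor list and base composition). The peaks of a list share 1 background and depth, and cisplatin lists came from fewer replicates than control lists, so a shift of all peaks of a list cannot be told apart from these.

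Relative to control, the median ratio of fold enrichment after cisplatin was 0.847 in A2780 and 0.949 in Acis, and 15.6% and 35.3% of shared peaks had a ratio above 1. Acis was above A2780 without treatment, with a median ratio of 1.09, and after cisplatin, with 1.22. Few peaks reached a 2-fold difference. They numbered 206 (1.17%) for cisplatin in A2780, of which 189 were lower, and 34 (0.193%) for cisplatin in Acis. Between the lines there were 141 (0.800%) without treatment and 402 (2.28%) after cisplatin, of which 378 were higher in Acis. Gene starts and distal sites differed most between the cisplatin lists, where the median ratio of Acis to A2780 was 1.28 at gene starts and 1.12 at distal sites. In Acis, the ratio after cisplatin was 0.974 at gene starts, 0.902 at distal sites and 0.877 at distal sites with a CTCF sequence. In A2780 these were 0.840, 0.857 and 0.847.

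**Figure D4:**
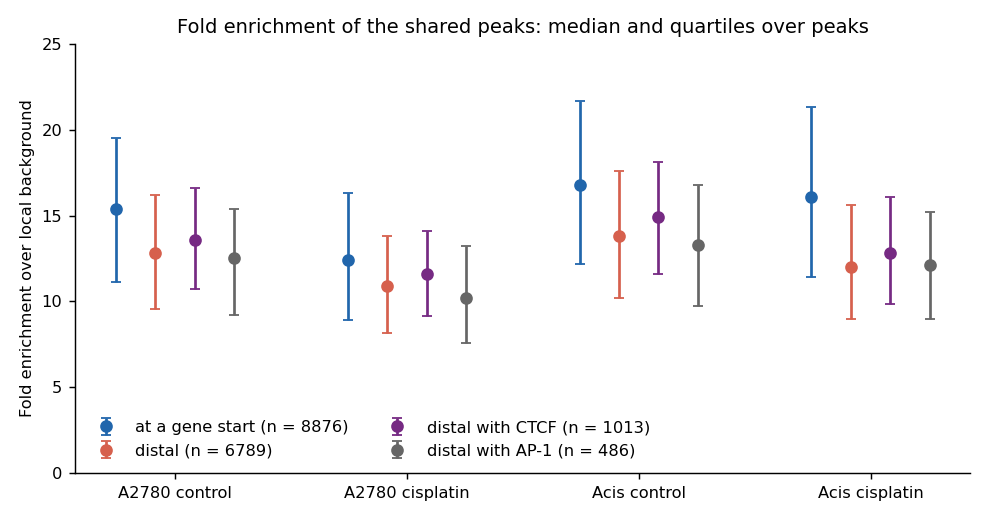
Fold enrichment over local background of shared peaks in the 4 lists, as the median (point) and quartiles over peaks (bars), for peaks at a gene start, distal peaks and distal peaks with a CTCF or AP-1 sequence. Peaks at gene starts have the highest median in every list, from 12.4 in A2780 cisplatin to 16.8 in Acis control.

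The highest -log10 q values of all belonged mostly to sequence that is also in the mitochondrial genome. Of the shared peaks, 13 had at least 20% of their 25-base words in the mitochondrial sequence, and their median -log10 q was 4527 in A2780 control, against 143 over all shared peaks. By the lowest -log10 q of the 4 lists, the first was chr11:10508375-10509997 near MIR4485, with fold enrichments of 22.9 and 23.2 in A2780 (control, then cisplatin) and 24.9 and 24.9 in Acis. Series of 4 fold enrichments are given in this order from here on. All 4 values of this peak lay within a narrow range. The second was chr1:631770-634859, a stretch of mitochondrial pseudogenes such as MTATP6P1, at 3.85, 3.95, 4.26 and 4.30. The third was chr13:109424128-109424341, whose words were all in the mitochondrial genome, at 40.1, 40.3, 43.7 and 43.2. The fourth, chr17:22521210-22521638, had 5.68% of such words and fold enrichments of 48.5, 46.7, 53.7 and 53.4, the highest of all shared peaks. The fifth was chr5:134926520-134927387 at MTND5P11. The third is shown to let the match be seen, since its 60 bases at the summit equal positions 1112 to 1171 of the mitochondrial genome on the minus strand.
Mitochondrial-like peak, chr13:109424191-109424250, GRCh38 plus strand: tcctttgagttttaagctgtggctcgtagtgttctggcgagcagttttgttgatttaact
The authors removed reads that aligned to the mitochondrial genome and allowed up to 10 alignments per read. How many reads of mitochondrial origin were placed on these 13 peaks was not tested. Their median ratios between lists were 0.988 for cisplatin in A2780, 1.01 for cisplatin in Acis and 1.07 between the untreated lines, and none reached a 2-fold difference.

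Repeated sequence had a lower share in shared peaks overall and a higher one in distal shared peaks. The 32 bases at the summit occurred more than once in the genome in 9.90% of shared and 13.7% of other peaks. Among distal peaks these shares were 17.9% and 15.5%. Leading peaks with a single copy and no mitochondrial match, chosen after their values were seen, were those at the starts of LINC00663 (chr19:19776140-19776924, fold enrichments 24.8, 23.4, 26.9 and 28.7) and of EDEM3, which encodes a glycoprotein mannosidase of the endoplasmic reticulum (chr1:184754436-184755423, 25.6, 24.4, 27.9 and 29.2). They were followed by an intergenic peak at chr20:29444939-29445887 and by peaks at CIC, a transcriptional repressor, and KAT6B, a histone acetyltransferase. The widest shared peaks were in an intron of LINC01060 (chr4:188444901-188449132, 4232 bp), at ROCK1P1 (chr18:107163-111031, 3869 bp) and at chr17:81867061-81870603 (3543 bp). The summit bases of the LINC01060 peak occurred 46 times in the genome and those of the ROCK1P1 peak 4 times.

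A few shared peaks changed their rank between lists, given as the percentile of fold enrichment within each list, and the lists differ in length. The 3 with the largest rise of rank after cisplatin in both lines were all within 1000 bp of a transcript start. At NT5C2, a cytosolic nucleotidase (chr10:103192273-103192926), the values were 6.79 and 10.6 in A2780 and 6.39 and 11.4 in Acis. At ZSWIM2 (chr2:186848871-186849350) they were 6.99, 13.2, 6.67 and 10.9, and at YRDC, an enzyme that modifies transfer RNA (chr1:37807580-37807865), 6.98, 10.8, 10.2 and 14.5. These peaks were chosen for that rise, so it is a description. The largest fall was at an intergenic peak, chr7:2873874-2874746, with 21.6, 4.68, 16.3 and 6.70. The next falls were at NRXN2, a synaptic adhesion gene (chr11:64723148-64723876), with 12, 6.21, 13.4 and 5.1, and at MCM9, a helicase of recombination repair (chr6:118934551-118935465), with 16.6, 9.06, 12.6 and 5.31. RNA changed at some of these genes, and that of NT5C2 is not given here. YRDC RNA rose in A2780 (log2 fold change 0.43, SE 0.061, adjusted p = 1.57e-06 by edgeR's quasi-likelihood test with Benjamini-Hochberg adjustment). In Acis it did not pass the test (0.15, adjusted p = 0.103 by edgeR). MCM9 RNA fell in A2780 (-0.49, SE 0.10, adjusted p = 0.000328 by edgeR) and in Acis (-0.28, SE 0.098, adjusted p = 0.0424 by edgeR). NRXN2 and ZSWIM2 did not pass the test in A2780, with adjusted p of 0.818 and 0.218 by edgeR, nor in Acis.

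Between the lines, the largest gain of rank in Acis was at the start of SLF2, which encodes a factor that brings the SMC5/6 complex to damaged DNA (chr10:100912750-100913465). Its fold enrichments were 4.84 and 6.76 in A2780 and 25.1 and 25.2 in Acis. Its -log10 q values were 206, 125, 611 and 314. Within 20000 bp of the peak on either side, each A2780 list had 5 peaks and each Acis list 1. Normalized RNA counts of SLF2 were 1506, 1481 and 1534 in A2780 control and 665, 710 and 699 in Acis control. The groups did not overlap, and the RNA was lower in Acis (log2 fold change -1.12, SE 0.039, adjusted p = 1.17e-19 by edgeR), while the fold enrichment at its start was higher. The other gains were at chr15:53918240-53918831 (6.62, 6.32, 20 and 22.8) and at chr12:54359045-54359727 beside GPR84-AS1 (8.94, 6.66, 22.3 and 22.2). The losses of rank in Acis were led by an intronic peak of LIPA, lysosomal acid lipase (chr10:89260420-89260859), with 22.3, 17.3, 5.76 and 5.69. Next were chr11:58524074-58524833 (16.5, 15.9, 4.47 and 5.59) and a peak in C1D, a factor of the nuclear exosome (chr2:68062577-68063345, 19.0, 16.0, 6.66 and 6.17). RNA of LIPA and C1D was higher in Acis control than in A2780 control (log2 fold changes 0.74, SE 0.042, and 1.49, SE 0.10, with adjusted p of 8.72e-15 and 1.06e-12 by edgeR).

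Most genes with a shared peak at the start were expressed. There were 12390 such genes in GENCODE 44, of which 8700 were protein-coding (43.6% of all protein-coding genes) and 2880 were long noncoding RNA genes (15.4%). In A2780 control, the median level of the 8240 protein-coding ones in the table was 55.2 normalized counts per kb of exon, against 6.36 for 4640 genes with no A2780 control peak at the start. The share of genes with a shared peak at the start was 15.4% in the lowest of 10 bins of expression and 76.7% in the highest. In the same bins, the median fold enrichment of the start peak stayed between 15 and 16.5, and the median -log10 q went from 189 to 309. These bins and the shares that follow cover only protein-coding genes with a row in the count table. None of the 8240 was at 0 in all 12 libraries, and genes without a row, whose levels are unknown, were left out. An average under 1 count a library was found in 27 (0.328%) of the 8240 genes with a shared peak and 148 (3.19%) of the 4640 without a peak. The strongest peaks at such quiet genes lay beside a further gene in 4 of 5 cases. Examples are CNGA4, which shares its peak (fold enrichments 22, 21.5, 24.2 and 27.1) with FHIP1B, and ARMH4, which shares it with ARID4A.

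Cisplatin changed the RNA of many of these genes by small amounts and of few by 2-fold. Of 10385 genes with a shared peak at the start in the table, 9006 passed the filter and were tested with edgeR's quasi-likelihood test in a model of the 4 groups, with Benjamini-Hochberg adjustment over all 15760 genes. Calls required an adjusted p under 0.05 and a log2 fold change of at least 1 in size. In A2780, 298 of the 9006 genes (3.31%) were higher after cisplatin, beside 4.14% of all genes tested, and 50 (0.555%) were lower, beside 1.48%. At the adjusted p alone, 2120 (23.5%) were higher and 2815 (31.3%) lower, beside 21.2% and 28.2% of all genes. Scaling by total counts turned that balance to 3478 higher and 1865 lower, and moved the median of all genes from -0.01 to 0.10 on the log2 scale, so the direction of small changes depends on the scaling. In Acis, 94 genes (1.04%) were higher, beside 1.64%, and 20 (0.222%) lower, beside 0.374%. At the adjusted p alone these were 949 (10.5%, beside 9.35%) and 1219 (13.5%, beside 12.4%), and 1580 and 852 with total counts as the scale. DESeq2 gave 52 higher past the fold threshold in Acis and 386 at the adjusted p alone. In both lines and directions, the share past the fold threshold was lower for genes with a shared start peak than over all genes, and the share at the adjusted p alone was slightly higher, and these gaps were not tested.

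The fold enrichment of a shared peak at the start moved little with the RNA. Over the 9006 genes, Spearman's rho between the log2 fold change of RNA and the ratio of fold enrichment was 0.0288 for cisplatin in A2780, 0.0180 for cisplatin in Acis and 0.0122 between the untreated lines. In A2780, the median ratio of fold enrichment after cisplatin was 0.835 at the 298 genes that were higher, 0.894 at the 50 that were lower and 0.834 at those not called. With the ratio of -log10 q in place of fold enrichment, rho was -0.00388, 0.0200 and 0.213. These are descriptions over genes that share 1 list a condition. Genes whose start peak was missing from a list were left out by the selection, so the values do not cover the loss of a peak.

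JUN, FOS and DUSP1 led the rises in A2780 among genes that reached a mean of 100 counts after cisplatin. JUN and FOS encode the AP-1 subunits and DUSP1 a phosphatase that turns off MAP kinases. JUN, whose shared peak is chr1:58783768-58784450, had 8.4, 10.6 and 12.8 normalized counts in A2780 control and 156, 121 and 141 after cisplatin. In Acis it had 72.2, 58.6 and 51.3 in control and 131, 135 and 142 after cisplatin. All 3 treated libraries were above the controls in each line, and untreated Acis was above untreated A2780. The rise was 3.72 on the log2 scale in A2780 (SE 0.18, adjusted p = 6.67e-15 by edgeR) and 1.16 in Acis (SE 0.12, adjusted p = 6.35e-08). The JUN peak had fold enrichments of 17.7 and 20.2 in A2780 and 22.9 and 24.4 in Acis. FOS (chr14:75278205-75279216) had 74.6, 75 and 71.5 counts in A2780 control and 828, 822 and 834 after cisplatin, and 73.2, 68.2 and 80.9 in Acis control and 275, 273 and 261 after cisplatin. The untreated lines overlapped and the treated ones did not, with rises of 3.49 (SE 0.062) and 1.87 (SE 0.084). The FOS peak had fold enrichments of 7.6, 8.85, 10.9 and 10.5. In A2780, DUSP1 rose from a mean of 45.4 ± 5.37 (SD, n = 3) to 291 ± 20.5, and the change in Acis was from 70.5 ± 5.38 to 140 ± 10.

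The 150 bases before the JUN and FOS starts, taken from RefSeq promoters on GRCh38 in the direction of the gene, are shown since the peaks there were open before treatment in both lines. Capitals mark the GC box and, in FOS, the TATA box.
JUN, chr1:58784058-58784207, minus strand: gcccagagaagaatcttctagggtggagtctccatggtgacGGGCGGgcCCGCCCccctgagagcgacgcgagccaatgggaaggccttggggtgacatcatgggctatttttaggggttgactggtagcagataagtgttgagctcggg
FOS, chr14:75278668-75278817, plus strand: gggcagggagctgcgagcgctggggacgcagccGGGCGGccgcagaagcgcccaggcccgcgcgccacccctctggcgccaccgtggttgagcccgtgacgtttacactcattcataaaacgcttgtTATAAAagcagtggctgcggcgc

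Immediate-early genes, which are switched on within minutes of a stimulus without new protein synthesis, had most of their shared-start members changed. Of 30 genes, 21 had a shared peak at the start. In A2780, 13 of these rose past the fold threshold, beside 4.14% of all genes tested. At the adjusted p alone 19 rose, beside 21.2%, 1 (DUSP6) fell, though not with total counts as the scale, and 1 did not pass. The median log2 fold change was 1.18 against -0.01 over all genes. In Acis, 4 rose past the fold threshold, beside 1.64% of all genes, and 15 at the adjusted p alone, beside 9.35%. There, 1 fell at the adjusted p alone, though not with total counts as the scale. The Acis median was 0.45 against 0.01. EGR1, a zinc finger factor, had 336, 358 and 354 counts in A2780 control, 1251, 1266 and 1242 after cisplatin, 1197, 1129 and 1135 in Acis control and 1380, 1400 and 1395 after cisplatin. The Acis control libraries were thus near the treated A2780 libraries, and the Acis change was 0.27 (SE 0.034). The EGR1 peak had fold enrichments of 7.17, 8.04, 7.41 and 8.51. FOSB rose from 80 ± 15.4 to 350 ± 28.6 in A2780 (SD, n = 3 each), and its level in Acis went from 63.5 ± 9 to 152 ± 7.79. BTG2, an antiproliferative p53 target, rose from 296 ± 4.46 to 766 ± 8.39 in A2780, with 199 ± 2.48 and 449 ± 6.71 in Acis. The start peaks of the 21 genes had a median fold enrichment of 7.6 in A2780 control, with a range of 3.58 to 21.4, against 15.4 over all shared peaks at gene starts. Among immediate-early genes without a shared start peak, ATF3, EGR2, EGR4, NR4A1, DUSP2 and DUSP5 also rose in A2780. The rise was thus not particular to genes with such a peak.

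Among the 7 genes of the study's real-time PCR, which the study chose on these samples, ARC and MYLIP had a shared peak at the start. ARC, which encodes a cytoskeletal protein of neurons, had 47.6, 50 and 57.6 counts in A2780 control, 220, 207 and 232 after cisplatin, 329, 285 and 278 in Acis control and 466, 477 and 536 after cisplatin. MYLIP, a ubiquitin ligase that degrades the LDL receptor, had 1.87, 4.81 and 3.20 in A2780 control and 22.5, 25.2 and 20.6 after cisplatin, from 10 and 71 counts in all (ratio 6.93, counting interval 3.56 to 15.1). In Acis it had 88.1, 106 and 88.9 in control and 171, 183 and 210 after cisplatin. Both genes were in the same order, with A2780 control lowest and Acis cisplatin highest. The MYLIP peak (chr6:16128765-16129127) had fold enrichments of 16.5, 10.3, 17.2 and 16.6, and the ARC peak 4.37, 3.49, 6.03 and 5.38.

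**Figure D5:**
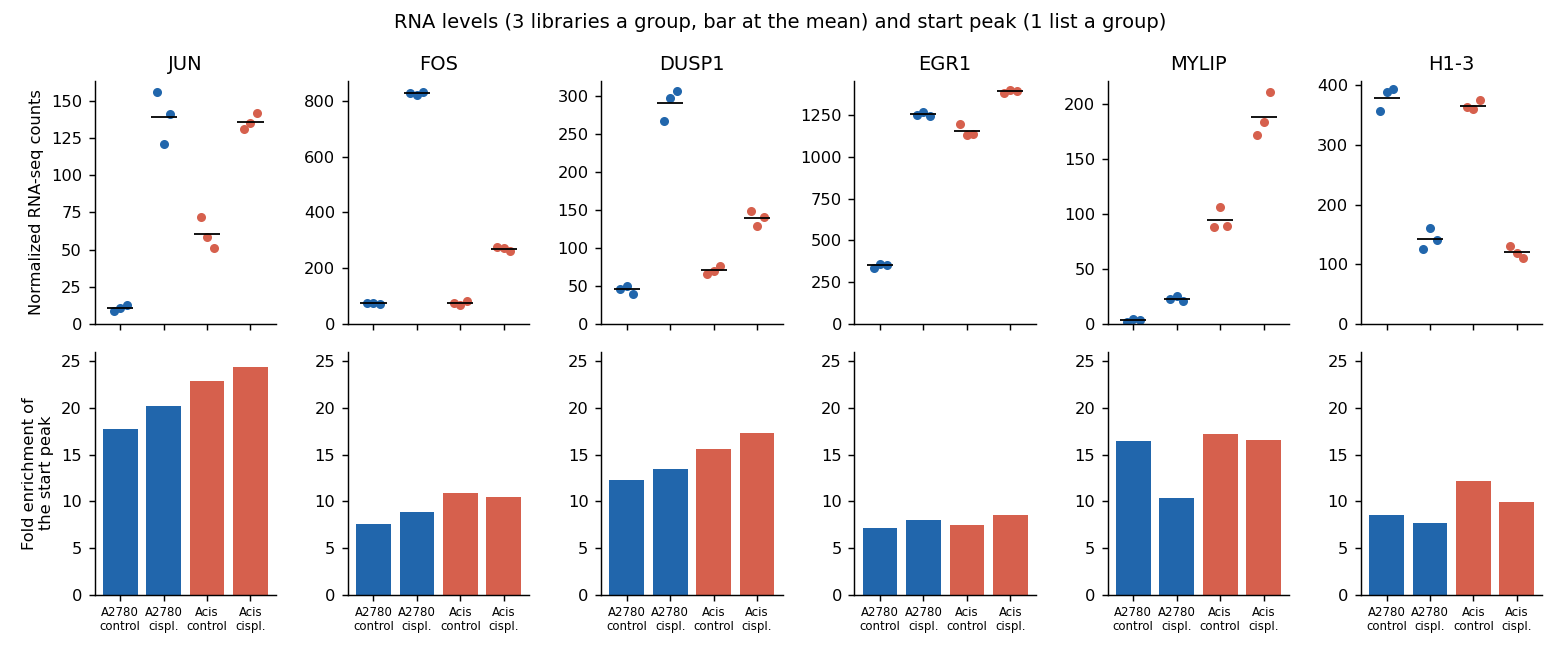
RNA levels and start peaks of 6 genes. The upper panels give TMM-normalized counts of each of 3 libraries per group with the group mean as a bar, and the lower panels the fold enrichment of the shared start peak in the 1 list per group. JUN RNA goes from a mean of 10.6 to 139 in A2780, and its peak from 17.7 to 20.2.

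Of 25 p53 targets, 18 had a shared peak at the start. In A2780, 10 rose and 2 fell at the adjusted p alone, 2 of them past the fold threshold, with a median of 0.22, beside 21.2% higher and 28.2% lower over all genes tested. In Acis, 11 rose and 1 fell, beside 9.35% and 12.4% over all genes, 1 past the fold threshold, with a median of 0.23. PLK3, a stress kinase, rose from 93.1 ± 8.59 to 350 ± 16.1 in A2780, and the Acis means were 107 ± 20.9 and 268 ± 22.5. GADD45A, a growth arrest gene, rose from 190 ± 3.63 to 343 ± 15.2 and from 65.9 ± 14.7 to 101 ± 6.18. FDXR, the mitochondrial ferredoxin reductase, rose in A2780 (0.74, SE 0.066) and did not pass the test in Acis (0.18, adjusted p = 0.0604 by edgeR). ZMAT3, an RNA-binding p53 target, fell in A2780 (-0.56, SE 0.057) and rose in Acis (0.29, SE 0.058).

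Nucleotide excision repair, which removes cisplatin adducts, changed little. Of 30 genes, 25 had a shared peak at the start and 24 of these were tested. In A2780, 4 rose and 6 fell at the adjusted p alone, beside 21.2% and 28.2% of all genes tested, so these counts are near the background. With total counts as the scale they were 11 and 2. None passed the fold threshold in either line. In Acis, 2 rose and 1 fell at the adjusted p alone, beside 9.35% and 12.4% of all genes tested. DDB2, which recognizes damage in chromatin, rose in both lines, from 281 ± 7.51 to 432 ± 17.4 in A2780, with Acis means of 243 ± 22.9 and 328 ± 6.62. ERCC1, part of the nuclease that cuts 5′ of the damage, rose in A2780 (0.29, SE 0.054), and its partner ERCC4 fell (-0.28, SE 0.058). GTF2H3 and GTF2H2, subunits of TFIIH, fell by 0.36 and 0.31 on the log2 scale, and GTF2H2 has near-identical copies in the genome, so its counts are uncertain. In Acis, ERCC1, ERCC4, GTF2H2 and GTF2H3 did not pass the test. The start peaks of this list had a median fold enrichment of 19.4.

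Ribosomal protein genes of the cytosol had the most complete set of shared peaks, at 73 of 79 starts. In A2780, 53 rose at the adjusted p alone and none fell, beside 21.2% and 28.2% of all genes tested, with a median of 0.21, and 1 passed the fold threshold. In Acis, 5 rose and 2 fell at the adjusted p alone, beside 9.35% and 12.4% of all genes tested. Their median there was -0.04, which turned to 0.02 with total counts as the scale. RPS29 rose in both lines, in A2780 from 264 ± 7.86 to 607 ± 7.67, with 330 ± 12.5 and 538 ± 5.62 in Acis. RPL27A, RPL37, RPL32 and RPS15 rose by 0.52, 0.49, 0.52 and 0.57 in A2780. These genes have many processed pseudogenes that can take their reads, so each value is uncertain. Of 15 genes of platinum handling, 9 had a shared start peak, and 2 rose and 3 fell in A2780 at the adjusted p alone, none by 2-fold, which is near the background of 21.2% and 28.2%. The copper pumps ATP7A and ATP7B fell from 171 ± 9.38 to 108 ± 7.07 and from 231 ± 24.5 to 162 ± 7.84, and the importer SLC31A1 from 635 ± 4.73 to 575 ± 20.1. GSTP1, a glutathione transferase, rose from 466 ± 13.2 to 547 ± 15.1, and GSS, glutathione synthetase, changed from 441 ± 5.95 to 482 ± 19.5 (adjusted p = 0.0417 by edgeR, lost in most alternatives). In Acis, none of the 9 passed the test, while 2 were higher with total counts as the scale, and ATP7B passed with a replicate block (-0.27, adjusted p = 0.0392 by edgeR, against 0.0585 without it).

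The largest falls after cisplatin included histone genes. H1-3, a linker histone, had 357, 388 and 393 counts in A2780 control, 126, 161 and 140 after cisplatin, 363, 360 and 375 in Acis control and 131, 119 and 111 after cisplatin. The fall was alike in both lines, at -1.41 (SE 0.075) and -1.60 (SE 0.080), with a difference of -0.19 (SE 0.12, adjusted p = 0.294 by edgeR). H4C9 fell from 112 ± 6.6 to 53 ± 2.2 and from 127 ± 5.15 to 56.2 ± 8.61. Histone genes have near-identical copies, so these values are uncertain. The other leading falls were TMEM131L and GARNL3 in A2780 (-1.37, SE 0.076, and -1.31, SE 0.15) and NR6A1, an orphan nuclear receptor, in Acis (-1.30, SE 0.11). Leading rises in Acis beside FOS were MIRLET7IHG, the host gene of a let-7 microRNA, from 16.7 ± 1.25 to 102 ± 13.4, and C18orf32, from 38.4 ± 4.2 to 114 ± 4.45, which overlaps a readthrough gene and is uncertain.

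The response differed between the lines at some of these genes. By the test of the difference itself, with the same thresholds, 61 of 9006 genes (0.677%, beside 0.698% of all genes) responded less, or more negatively, in Acis, and 25 (0.278%, beside 0.66%) the other way. At the adjusted p alone, 606 (6.73%, beside 5.48%) were lower and 1566 (17.4%, beside 13.4%) higher in Acis. Of the 21 immediate-early genes, 15 passed the adjusted p alone with a lower response in Acis and none with a higher one, 7 past the fold threshold, with a median of -0.76. Of the 73 ribosomal protein genes, 43 passed at the adjusted p alone with a lower response in Acis and none with a higher one, with a median of -0.25. Before treatment, 56 of these 73 genes were higher and 3 lower in Acis than in A2780 at the adjusted p alone. That is beside 28.2% and 30.6% of all genes, and the median difference was 0.21 on the log2 scale. For JUN, the difference was -2.56 (SE 0.25, adjusted p = 1.14e-07 by edgeR), and untreated Acis had more JUN RNA than untreated A2780.

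Between the untreated lines, the shares of called genes with a shared start peak were below those of all genes. Of the 9006 genes, 346 (3.84%) were higher in Acis, beside 6.99% of all genes, and 644 (7.15%) were lower, beside 12.2%. At the adjusted p alone, 2605 (28.9%, beside 28.2%) were higher and 2743 (30.5%, beside 30.6%) lower, which is near the background. Among 406 tested genes whose start had a peak in both A2780 lists and neither Acis list, 215 (53%) were lower in Acis, with a median log2 fold change of -1.24 against -0.01 for genes with a shared start peak.

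Even so, some genes were nearly silent in 1 line with a peak at the start in all 4 lists. INHBA, which encodes the activin A subunit, had 0, 1.92 and 1.07 normalized counts in A2780 control and 1067, 1142 and 1133 in Acis control (ratio 1132, counting interval 387 to 5493, from 3 counts in A2780 control). Its peak, chr7:41705092-41705740, had fold enrichments of 18.1, 15.9, 8.71 and 6.73, and so was higher in the line with almost no RNA. FIGN, a microtubule-severing protein, had 897, 940 and 916 counts in A2780 control and 2.12, 0 and 0 in Acis control (ratio 1264, counting interval 350 to 10446). The FIGN peak (chr2:163735855-163736371) had 4.68, 8.90, 10.7 and 8.46. Its -log10 q went the other way, from 41.5 in A2780 control to 30.8 in Acis control. Within 20000 bp of the peak, A2780 control had 3 peaks and Acis control 1. THBS1, a matrix glycoprotein, had 1336, 1426 and 1297 in A2780 control and 2.12, 4.26 and 4.56 in Acis control (ratio 373, counting interval 203 to 779), with peak values of 6.34, 5.09, 6.38 and 6.51. The THBS1 peak was 2209 bp wide in A2780 control and 646 bp in Acis control. PDGFD, a growth factor, had a ratio of 556 (counting interval 99.4 to 21999, from 1 count in Acis control) and peak values of 13.6, 9.51, 9.56 and 9.40. GALNT18, a glycosyltransferase, was higher in Acis with a ratio of 347 (counting interval 95.7 to 2874, from 2 counts in A2780 control). LINC03051 had no counts in all A2780 libraries and 111, 106 and 92.3 in Acis control, at least 35.1-fold higher against a floor of 3 counts per library. Its peak had fold enrichments of 21.0, 14.7, 17.6 and 16.6. These ratios cover counting error only.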

How the data were processed

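Per the authors' methods, ATAC-seq reads were aligned to hg38 with Bowtie2 (2.4.1 in the submitters' processing notes) with up to 10 alignments per read, mitochondrial, chromosome Y and duplicate reads were removed, and MACS2 called peaks per replicate and on pooled reads, keeping those where replicates overlapped. The deposited fold enrichment (a ratio to local background), -log10 p and -log10 q of each peak were used as the authors gave them, and the deposited score was read only to check the layout. RNA-seq counts were deposited raw by the authors after STAR, removal of duplicates with Picard and strand-specific counting with HTSeq 0.11.1.

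Overlaps, gene starts (GENCODE 44), motifs and word matches were computed in Python 3.11.15. Counts were tested with edgeR 4.0.16 (TMM, default filter, quasi-likelihood, a model of 4 groups) and, as an alternative, DESeq2 1.42.0. The test was tested on simulated data. Normalized counts are TMM-scaled to the mean library size. The -log10 q of the overlapping peak with the highest value chose the peak that stands for a member elsewhere.

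The members, lists and rules were chosen with earlier results of these data known. Genes named are, among those with a shared start peak, the 3 largest rises and falls of each comparison among calls without overlap of groups and 100 or more mean counts where higher, and per list up to 5 genes with the smallest adjusted p in A2780, plus the genes of the real-time PCR. Regions were named by strength, width, motif and change of rank, off chromosome 8. Some of the genes at regions named for rank were added. Alternatives were other overlaps, peak thresholds, start windows, normalizations and filters, leaving out each library and a replicate block. XR-seq samples were not analysed here.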

Additional observations from a re-analysis of the deposited data

Results flagged for a closer look

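Of the 47 named genes tested, 27 differed between the lines in their response to cisplatin by edgeR's test of the difference, at an adjusted p under 0.05. Most of these genes were named for their response in A2780, so the count and its direction partly follow from that choice. Over all 15760 genes, 5.48% had a lower and 13.4% a higher response in Acis at the same threshold. The values are the log2 response in Acis minus that in A2780.

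The response was lower in Acis at 19 genes. Among immediate-early genes and those of the real-time PCR, the difference was -2.56 for JUN, -1.62 for FOS, -1.68 for DUSP1, -1.57 for EGR1, -0.88 for FOSB, -1.37 for ARC and -1.76 for MYLIP. It was -0.58 for PLK3 and -0.55 for FDXR. Ribosomal protein genes had -0.50 for RPS29, -0.25 for RPL27A, -0.24 for RPL37, -0.49 for RPL32 and -0.51 for RPS15. The others were -0.89 for C18orf32, -0.93 for NR6A1, -0.43 for ERCC1, -0.21 for GSTP1 and -0.27 for YRDC. NR6A1 fell in both lines and by more in Acis.

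The response was higher, or less negative, in Acis at 8 genes. The difference was 0.73 for TMEM131L, 0.74 for GARNL3, 0.35 for GTF2H3, 0.32 for ERCC4, 0.56 for ATP7A, 0.28 for SLC31A1 and 0.30 for SLF2, all of which fell in A2780. ZMAT3, at 0.85, fell in A2780 and rose in Acis.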

How the results depend on the processing

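The number of shared peaks was 13726 to 17746 under 7 other definitions, against 17633. The share at gene starts was 49.5% both with an overlap of 50% of the peak and with a reciprocal one, 54.3% with -log10 q of at least 20, and 56.5% in the 20000 strongest peaks of each list. It was 53.1% for summits that occur once in the genome, an alternative chosen after seeing the data. With starts within 100 bp, within 1000 bp and at all transcripts, it was 46.2%, 53.7% and 60.6%, beside 9.75%, 17.5% and 21.3% of other peaks. With the peak of largest overlap, also chosen after seeing the data, 88 shared peaks differed 2-fold after cisplatin in Acis, against 34.

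Of genes with a shared start peak, 458 were higher in A2780 without the filter (298 with it), 30 lower with total counts (50 with TMM) and 52 higher in Acis by DESeq2 (94 by edgeR). At the adjusted p alone, DESeq2 gave 386 higher in Acis (949 by edgeR). Without 1 library, counts were 306 to 348 higher and 47 to 64 lower in A2780, 80 to 105 and 19 to 22 in Acis, and 339 to 360 and 645 to 692 between lines. The difference between the lines, whose alternatives were added after seeing the data, gave 9 higher and 34 lower by DESeq2 (25 and 61 by edgeR). Its higher count was 14 without Acis control replicate 1 and 39 without Acis cisplatin replicate 3. GTF2H2, SLC31A1 and GSS lost their calls in 4, 3 and 14 alternatives. With total counts as the scale, the balance of calls at the adjusted p alone turned from 2120 higher and 2815 lower to 3478 and 1865 in A2780, and from 949 and 1219 to 1580 and 852 in Acis. Nucleotide excision repair genes went from 4 and 6 to 11 and 2 in A2780, and the median of ribosomal protein genes in Acis from -0.04 to 0.02. Log2 changes of named genes, in the comparison each was named for, kept their sign in the alternatives run. The cause of these shifts was not tested.

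With a replicate block, counts were 298 and 50 in A2780, 92 and 21 in Acis, and 346 and 644 between lines, and of the named genes' calls at the adjusted p alone the block added 4 (ATP7B in Acis, FDXR between lines, GALNT18 and LIPA in the difference between the lines) and removed 0. Libraries of the same number correlated at -0.205 to 0.282 in their deviations from the group mean. Libraries of different numbers were not compared, so whether the numbers pair them was not tested. The precision is limited by 4130644 to 5072216 counts a library, and by 1 peak list per condition of unknown depth.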
